A study of Homo sapiens with 88 samples.

Results

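The genes that write, copy, erase and read DNA methylation were followed across small cell lung cancer (SCLC) lines treated with the vehicle DMSO or with an agent that the labels call 552A. The set holds 9 of the 19775 genes with a probe set assigned to that gene alone: DNMT1, UHRF1, DNMT3A, DNMT3B, TET1, TET2, TET3, TDG and MBD2. They were taken by name, with all of their probe sets. The 9 genes have 20 of the 41091 probe sets that carry 1 gene symbol. Of the 20, 16 passed the filter on dim signal, which asked for at least 1 group mean above the median of all values, 7.41 on the log2 scale. The other 4 probe sets (DNMT3A 244428_at, TET2 1569385_s_at, TET2 235461_at and MBD2 202485_s_at) lay below it in every group and were not tested. Each gene kept at least 1 tested probe set.

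Cytosines followed by guanine are methylated by DNMT enzymes. DNMT3A and DNMT3B set new marks, and DNMT1 copies marks to the daughter strand during replication after UHRF1 has recognised the half-marked site. TET enzymes oxidise the methyl group, TDG cuts out the oxidised base so that repair can restore an unmarked cytosine, and MBD2 binds methylated DNA and recruits a repressor complex. LSD1, the demethylase encoded by KDM1A that the study design names as the drug target, removes methyl groups from histone H3 and has also been linked to the stability of the DNMT1 protein, which expression arrays do not measure.

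Total RNA was hybridised to 88 Affymetrix HG-U133 Plus arrays. All cells were established SCLC lines grown in RPMI with 10% FBS. The time course lines COLO668, NCI-H146, NCI-H446, NCI-H510, NCI-H526 and SHP-77 received DMSO or 552A for 2, 4 or 7 days, and H1417, H2171 and H69 for 4 days. Of the 42 groups of line, arm and day, 39 have a pair of arrays, NCI-H526 552A day 2 and NCI-H446 DMSO day 4 have 3 each, and SHP-77 552A day 7 has 4. The treatment protocol lists DMSO and 1 µM of GSK2879552, an LSD1 inhibitor, and no label states that 552A is that compound. The design text speaks of sensitive and resistant lines, and the labels do not say which line is which, so no such grouping was made. The labels do not tell whether the arrays of 1 group stem from separate cultures. The p-values therefore measure only the spread between arrays, which may be technical.

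The neuroendocrine factor INSM1 was bright in every line (line means of 12.36 to 13.80 on DMSO), and the tuft cell factor POU2F3 was bright in NCI-H526 alone (12.48, above the dim limit of 6.09 in 1 of 9 lines). Of the 3 leukocyte markers with a usable probe set (CD68 had none), PTPRC lay below that limit in all 9 lines (4.59 to 5.37), while CD3E (7.49 to 7.93) and CD14 (6.35 to 7.06) lay above it in all 9. Of 4 fibroblast markers, all above the limit in 9 of 9 lines, COL1A1 (6.75 to 7.04), COL3A1 (6.13 to 6.42) and DCN (6.71 to 7.06) had nearly the same level in each line, and COL1A2 ran from 6.95 to 12, its value in H69. Of 3 endothelial markers, PECAM1 (8.06 to 8.40) and VWF (7.61 to 7.97) also varied little, and CDH5 ran from 5.07 to 10.91 and was above the limit in NCI-H446 alone. The part of these markers in the results was not tested. In 5 arrays, all from day 7, the ACTB signal at the 3' end exceeded that at the 5' end by more than 0.8 log2 units (SHP-77 DMSO replicate 1 and 552A replicates 1 and 2, COLO668 DMSO replicate 1 and 552A replicate 2), against at most 0.73 in the rest. The next highest values (0.73, 0.64, 0.59, 0.47, 0.42 and 0.41) were all from COLO668, against a median of -0.003, and those arrays were kept. A sixth array in doubt, NCI-H446 DMSO day 4 replicate 2, had an interquartile range of 2.56, against 2.89 to 3.24 in the others. Called member changes in SHP-77, COLO668 and NCI-H446 that use any of these 6 arrays are given with and without them.

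Promoter windows show what sequence stands at the annotated starts of the copying pair, DNMT1 and UHRF1, and of DNMT3B, the member with the most calls per line and day. They run from 250 bases before to 50 bases after a RefSeq transcript start on GRCh38.p14, 5' to 3', with each CG, the site of methylation, in capitals. The DNMT1 window lies on the minus strand at chr19:10194904-10195203, at the outer end of the annotated gene. The UHRF1 window (chr19:4909251-4909550, plus strand) is the first of its 3 windows and starts transcription 6421 bases inside the outermost annotated span of that gene. The DNMT3B window (chr20:32779602-32779901, plus strand) belongs to a start 17467 bases inside the gene's annotated span, which runs from 32762385 to 32809356, so it is not the window at the gene's outer end.
DNMT1: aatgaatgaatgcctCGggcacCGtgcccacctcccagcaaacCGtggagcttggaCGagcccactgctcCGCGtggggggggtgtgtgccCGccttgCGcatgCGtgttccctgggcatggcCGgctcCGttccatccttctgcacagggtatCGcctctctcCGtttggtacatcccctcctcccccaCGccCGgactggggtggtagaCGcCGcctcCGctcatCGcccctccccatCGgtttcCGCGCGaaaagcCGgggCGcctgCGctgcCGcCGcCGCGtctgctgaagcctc
UHRF1: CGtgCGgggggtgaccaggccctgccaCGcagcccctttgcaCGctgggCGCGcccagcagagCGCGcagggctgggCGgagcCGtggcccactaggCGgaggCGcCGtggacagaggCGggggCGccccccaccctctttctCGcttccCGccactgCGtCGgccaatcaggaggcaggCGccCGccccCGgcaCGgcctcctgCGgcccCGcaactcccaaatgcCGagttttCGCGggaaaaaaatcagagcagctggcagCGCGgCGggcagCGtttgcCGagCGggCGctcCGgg
DNMT3B: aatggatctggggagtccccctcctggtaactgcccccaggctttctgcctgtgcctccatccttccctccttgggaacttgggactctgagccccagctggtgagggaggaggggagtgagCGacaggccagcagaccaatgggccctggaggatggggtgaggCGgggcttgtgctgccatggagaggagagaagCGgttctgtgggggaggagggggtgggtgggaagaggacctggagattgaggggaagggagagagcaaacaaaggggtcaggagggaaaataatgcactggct
The DNMT1 window holds 30 CG sites, the UHRF1 window 36 and the DNMT3B window 3, against a median of 14 over 34796 RefSeq promoter windows of the same length, of which 24.6% hold at most 3. An E2F word, the sequence read by the factors that switch on S phase genes, was searched as TTTCCCGC, TTTCGCGC, TTTGCCGC or TTTGGCGC on both strands. It occurs in 3.31% of all windows. Of the 20 windows that all 9 members have, 3 hold one: the DNMT1 window (GCGCGAAA, beginning 2 bases before the start), the UHRF1 window shown (GCGGGAAA, beginning 14 bases before the start) and the second UHRF1 window. A match is a description of letters, and the DNMT3B window shown holds none of them.

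Vehicle-treated cells of the 9 lines differed in the level of every member. The DMSO means at day 4 were unequal for 16 of 16 probe sets (moderated F test in limma, adjusted p below 0.05), where 96.7% of all 29598 probe sets tested were also called, so the difference between lines is common to nearly all genes and its size is what separates the members. Levels below are log2 signals, given as mean ± SD over a line's DMSO arrays of all days, and levels of different probe sets are not set against each other.

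The copying pair varied least among writers. DNMT1 (201697_s_at) ranged from 11.49 ± 0.06 (n = 6) in NCI-H146 to 12.17 ± 0.00 (n = 2) in H69, a spread of 0.68 over the 9 lines. In that order, H69 and H1417 (12.15 ± 0.02, n = 2) did not overlap, NCI-H510, NCI-H526 and NCI-H146 were each set off from the next, and the arrays of the lines between overlapped with their neighbours. UHRF1 (225655_at) ranged from 11.14 ± 0.06 (n = 6) in COLO668 to 12.76 ± 0.02 (n = 2) in H1417. Both ends stood apart from their neighbours, and H69 (12.48 ± 0.08, n = 2) was second. NCI-H446 and H2171 (12.13 ± 0.13, n = 2) came next and overlapped with each other. Below H2171 and without overlap with it, NCI-H510 followed, then NCI-H526, SHP-77 and NCI-H146, in overlapping steps between 11.85 and 11.64.

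The enzymes that set new marks differed more between lines. DNMT3A (222640_at) was highest in H2171 (10.57 ± 0.10, n = 2), COLO668 (10.48 ± 0.14, n = 6) and H1417 (10.45 ± 0.08, n = 2), which overlapped with one another. It was lowest in NCI-H446 (8.66 ± 0.15, n = 7), below H69 (8.95 ± 0.01, n = 2) and SHP-77 (9.25 ± 0.06, n = 6), with no overlap between these 3. Its second probe set, 218457_s_at, gave nearly the same order (r = 0.99 over the 9 day 4 means, a description with 1 point per line). DNMT3B, with the one probe set 220668_s_at, spanned 2.45 log2 units. It was highest in NCI-H510 (10.45 ± 0.13, n = 6), then NCI-H146 (10.18 ± 0.09, n = 6) and H69 (10.16 ± 0.17, n = 2), and lowest by a clear gap in NCI-H526 (8.0 ± 0.16, n = 6), the POU2F3-bright line. COLO668 (9.68), SHP-77 (9.67) and H2171 (9.53) formed an overlapping middle, followed by H1417 (9.07) and NCI-H446 (8.90), which overlapped with each other.

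Among the erasers, TET1 was set apart in 1 line. With 228906_at its arrays read between 10.88 and 11.05 in NCI-H510 (mean 10.96 ± 0.06, n = 6), whereas the other 8 line means lay between 8.24 in COLO668 and 9.27 in NCI-H526. The second TET1 probe set, 214862_x_at, was low in H2171 (5.94 ± 0.01, n = 2, under the dim limit) and between 8.14 and 8.73 in the other 8 lines. The 2 probe sets therefore rank the lines differently (r = 0.42 over 9 lines). TET2 (227624_at) was highest in H1417 (10.02 ± 0.00, n = 2) and lowest, at 8.69, in SHP-77 and NCI-H146, which overlapped. TET3 (235542_at) was also highest in H1417 (11.41 ± 0.06, n = 2) and was set off at the low end in H69 (9.58 ± 0.06, n = 2). TDG (203743_s_at) spanned 0.72, from 11.99 ± 0.23 (n = 7) in NCI-H446 to 12.71 ± 0.04 (n = 2) in H1417. By their lead probe sets, UHRF1, TET2, TET3 and TDG all had their highest DMSO level in H1417, but TDG 203742_s_at was highest in NCI-H510 (10.85) and TET3 1554641_a_at in H2171 (8.03).

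The lead probe set of MBD2, 202484_s_at, ranged from 10.50 ± 0.05 (n = 2) in H2171 to 12.44 ± 0.06 (n = 2) in H69. On 214397_at the highest DMSO mean was also that of H69 (9.11 ± 0.05, n = 2). There H69, NCI-H510 (8.86) and NCI-H146 (8.43) formed a bright group with overlapping neighbours, COLO668 (7.25) and H1417 (7.10) lay between, and H2171, NCI-H446, NCI-H526 and SHP-77 were all under the dim limit, so their levels have no reliable order. Which stretch of the MBD2 transcript each probe set reads was not analysed here.

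**Figure D1:**
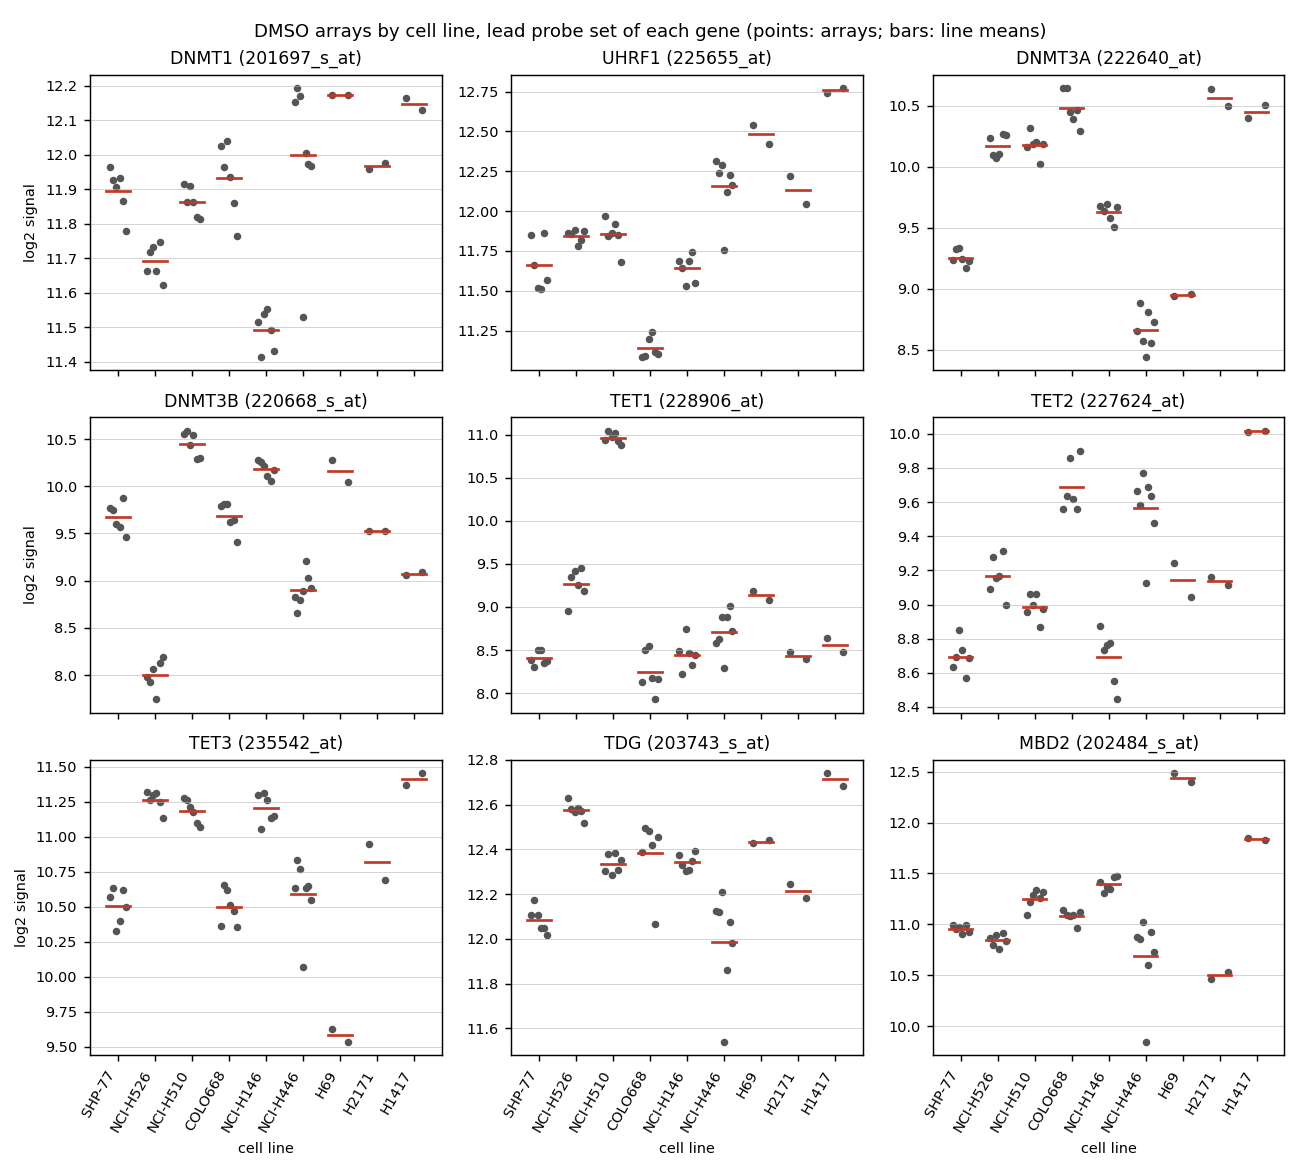
Log2 signal of the lead probe set of each of the 9 genes (y axis, own scale per panel) on every DMSO array of the 9 lines (x axis), with points for arrays of all days and red bars for line means. DNMT3B is lowest in NCI-H526 (mean 8.0), TET1 stands out in NCI-H510 (10.96), MBD2 is highest in H69 (12.44), and the lowest NCI-H446 points of DNMT1, TDG and MBD2 come from the array with the narrow interquartile range.

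With all arrays in the fit, member changes on vehicle alone from day 2 to day 7 ran from -0.42 to 0.27, and 66 of 96 were below 0. DNMT3B fell by 0.28 in NCI-H510 and in COLO668 without being called (adjusted p = 0.250 and 0.152, limma). Over the 6 lines it was higher at day 7 in 2 and lower in 4. Between day 2 and day 7 on DMSO, 1 of 96 pairs of probe set and line was called, against 2.05% of all pairs of the 6 lines: DNMT3A 218457_s_at fell by 0.41 in SHP-77 (adjusted p = 0.0113), where the lead DNMT3A probe set was not called. SHP-77 DMSO day 7 replicate 1 is an array in doubt. With it left out no pair was called, as without SHP-77 DMSO day 2 replicate 1 or replicate 2, and 3 pairs were called without COLO668 DMSO day 7 replicate 1 or without NCI-H446 DMSO day 4 replicate 2. Without all 6 arrays in doubt there were 6. That setting leaves 1 DMSO array at day 7 in SHP-77 and in COLO668, and its share of all pairs called was not taken. A shared shift over 6 lines was called for 0 of 16 (limma, 0.00338% of all probe sets called, 1 member probe set with an unadjusted p below 0.05).

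The response to 552A differed between lines in size and in direction. Averaged over the days of a line, 552A minus DMSO passed the test for 20 of 144 pairs of probe set and line, 14 up and 6 down, against 8.27% of all pairs (4.86% up and 3.41% down). COLO668 had 5 up and 1 down of 16 (17.2% of all probe sets called in that line), NCI-H526 4 up (17.5%), NCI-H510 1 up and 2 down (12.7%) and H1417 3 up (7.05%). NCI-H146 had 2 down (4.93%), SHP-77 1 down (6.12%) and H69 1 up (3.06%). NCI-H446 (4.36%) and H2171 (1.42%) had none. The median of the 144 changes was 0.04. DNMT3B supplied 5 of the 20 calls and MBD2 another 5, while DNMT1 and TDG supplied none.

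Equality of the response among the 6 time course lines failed for 8 of 16 probe sets (moderated F test, adjusted p below 0.05), against 31.8% of all probe sets. These were DNMT3B (adjusted p = 3.43e-15), UHRF1 (0.00206), TET2 (0.00411), MBD2 214397_at (0.00493), TET1 214862_x_at (0.0122), TET3 235542_at (0.0128), TET1 228906_at (0.0232) and DNMT3A 222640_at (0.0326). In SHP-77, NCI-H526 and NCI-H446, 3 of the 6 lines, MBD2 214397_at was under the dim limit in both arms, so its test rests in part on values that cannot be read. The other 8, which did not pass, included DNMT1 (adjusted p = 0.709), both TDG probe sets (0.0733 and 0.537) and the MBD2 lead probe set (0.0953).

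**Figure D2:**
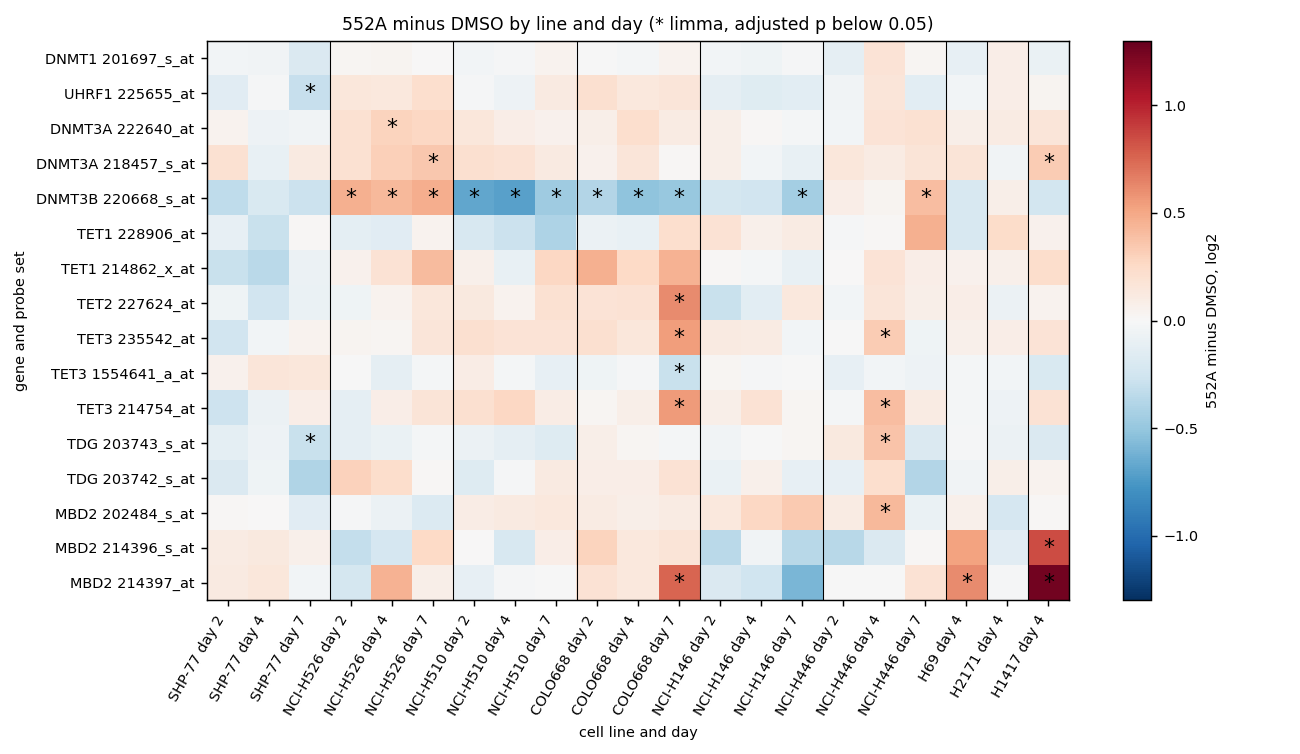
Difference 552A minus DMSO on the log2 scale (colour) for the 16 tested probe sets (y axis) in each of the 21 combinations of line and day (x axis), with an asterisk where limma gave an adjusted p below 0.05. The DNMT3B band is red in NCI-H526 and blue in NCI-H510 and COLO668 on all 3 days, and the strongest red is MBD2 214397_at in H1417 (1.26).

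DNMT3B, which sets new methyl marks, carried the clearest line-by-line pattern: it rose in 1 line and fell in 4. In NCI-H526 the DMSO arrays read 7.98 and 7.92 at day 2, 8.06 and 7.74 at day 4, and 8.13 and 8.19 at day 7. Under 552A they read 8.5, 8.43 and 8.32, then 8.31 and 8.35, then 8.65 and 8.61. Every 552A array lay above every DMSO array of this line, and the day-averaged rise was 0.45 (SE 0.06, 1.37-fold, adjusted p = 3.82e-08, limma).

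In NCI-H510, where DNMT3B began highest, the DMSO arrays read 10.55 and 10.59, then 10.44 and 10.55, then 10.29 and 10.30. Under 552A they read 9.93 and 9.87, then 9.72 and 9.86, then 9.73 and 9.94. All 6 treated arrays lay below all 6 controls, and DNMT3B fell by 0.61 (SE 0.06, 1.53-fold lower, adjusted p = 2.54e-11). COLO668 showed a fall of nearly that size. Its DMSO arrays ranged from 9.41 through a median of 9.72 to 9.81 (n = 6) and its 552A arrays from 9.01 through 9.20 to 9.46 (n = 6), so the arms overlapped only where a DMSO array of day 7 lay below the highest 552A array, one of day 2. The day-averaged change was -0.47 (SE 0.06, adjusted p = 4.97e-08), and it was -0.42 without the arrays in doubt (adjusted p = 1.92e-06).

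Smaller falls were measured in NCI-H146 and SHP-77. NCI-H146 read 10.05, 10.19 and 10.27 (lowest, median and highest of 6) on DMSO and 9.63, 9.91 and 10.07 (n = 6) under 552A, a change of -0.31 (SE 0.06, adjusted p = 0.000533). SHP-77 read 9.47, 9.68 and 9.88 (n = 6) on DMSO and 9.29, 9.40 and 9.50 (n = 8) under 552A, a change of -0.27 (SE 0.06, adjusted p = 0.00189). On each single day the treated arrays lay below the controls in both lines. Without the arrays in doubt the SHP-77 change was -0.22 (adjusted p = 0.0175).

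The remaining lines were not called on the day average. NCI-H446 gave 0.18 (95% interval 0.05 to 0.30, adjusted p = 0.0952), and passed without 552A day 2 replicate 2 (0.23, 0.0281) or DMSO day 4 replicate 3 (0.22, 0.0137). From day 4 alone, the change was -0.21 in H69 (-0.43 to 0.00), -0.24 in H1417 (-0.45 to -0.02) and 0.07 in H2171 (-0.14 to 0.29). These intervals still hold changes as large as the falls called in SHP-77 and NCI-H146, apart from those of NCI-H446 and H2171, which do not reach -0.27. Over all 9 lines, a probe set called in at least 5 lines is found for 1.40% of the array, one called up in at least 1 line and down in another for 6.06%, and one called in at least 1 line for 42.1%. DNMT3B met all 3 descriptions. Its 5 calls were each retained under the 8 other settings tried and with any 1 array of the line left out.

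By day, DNMT3B supplied 11 of the 28 calls among 336 combinations of probe set, line and day (18 up and 10 down, against 4.48% of all combinations, 2.90% up and 1.58% down). It was called on all 3 days in NCI-H526 (0.47, 0.42 and 0.47 at days 2, 4 and 7), in NCI-H510 (-0.67, -0.70 and -0.46) and in COLO668 (-0.38, -0.52 and -0.50). At COLO668 day 7 the change was -0.36 without the arrays in doubt, which leaves 1 array per arm. In NCI-H146 (-0.23, -0.25 and -0.44) and NCI-H446 (0.09, 0.04 and 0.40) it was called at day 7 alone. A rise or fall over the days was not tested within a line. With 2 arrays in most groups, several of these single-day calls depend on 1 array. Leaving out any 1 of the 4 arrays concerned ended the call in COLO668 at day 2 (adjusted p of 0.153 to 0.439) and in NCI-H446 at day 7 (0.0699 to 0.383). It also ended in NCI-H526 at day 4 without DMSO replicate 2, 552A replicate 1 or 552A replicate 2 (0.0580 to 0.503), and in NCI-H146 at day 7 without DMSO replicate 2, 552A replicate 1 or 552A replicate 2 (0.0727 to 0.262). In NCI-H526 at day 2 it was DMSO replicate 2 (0.0523), in NCI-H510 at day 7 552A replicate 1 (0.161), and in COLO668 at day 4 DMSO replicate 1 (0.0893) or 552A replicate 2 (0.0564).

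Set against the vehicle level, the line with the lowest DNMT3B (NCI-H526, 8.0) was the one that rose, and the 4 lines in which it fell had DMSO means between 9.67 and 10.45. The order is given as values only, since each change is computed from the same DMSO arrays as the level.

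**Figure D3:**
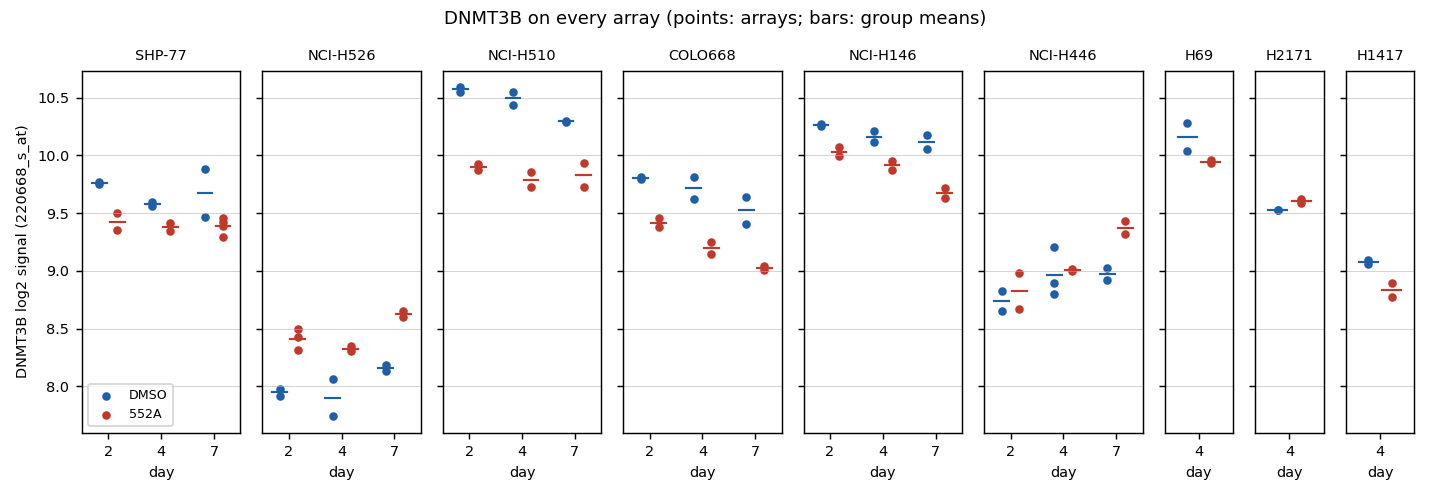
DNMT3B log2 signal (y axis) on all 88 arrays by line (panels) and day (x axis), blue for DMSO and red for 552A, with bars at group means. Red lies above blue on all 3 days in NCI-H526 and below blue on all 3 days in NCI-H510, COLO668, NCI-H146 and SHP-77.

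DNMT3A, the other enzyme that sets new marks, rose in NCI-H526 with both probe sets. On 222640_at the DMSO arrays read 10.08, 10.17 and 10.27 (lowest, median, highest, n = 6) and the 552A arrays 10.31, 10.39 and 10.54 (n = 7), with no overlap, a rise of 0.25 (SE 0.05, adjusted p = 0.000153). On 218457_s_at the rise was 0.28 (SE 0.06, adjusted p = 0.000185). In NCI-H526 the pair DNMT3A and DNMT3B thus rose together. In COLO668 and NCI-H510 DNMT3B fell, and the DNMT3A lead probe set gave 0.13 (adjusted p = 0.0702) and 0.09 (0.305). On 218457_s_at NCI-H510 gave 0.17, which was not called, although every 552A array lay above every DMSO array. It passed there under quantile normalization (0.0426), with a filter at the upper quartile (0.0405), without the 6 arrays in doubt (0.00806) and with the line fitted alone (0.0076). In H1417 218457_s_at was called in the main fit (0.33, adjusted p = 0.0414), from DMSO arrays at 9.55 and 9.26 and 552A arrays at 9.81 and 9.65. That call ended without DMSO replicate 2 (0.18, adjusted p = 0.612), without 552A replicate 1 (0.25, 0.366) or without 552A replicate 2 (0.41, 0.0542), and the lead probe set there gave 0.15 (0.450). Without the 6 arrays in doubt, 222640_at also passed in COLO668 (0.19, adjusted p = 0.00692).

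DNMT1, the copying enzyme, was called in 0 of 9 lines and on 0 of 21 line and day combinations by limma. Its day-averaged changes ran from -0.11 in H69 to 0.09 in H2171, with a median of 0.00. In the 6 time course lines the 95% intervals together ran from -0.19 to 0.13, so a change as large as that of DNMT3B in any of its called lines lay outside the interval of that line. In the 3 lines with day 4 alone they ran from -0.30 to 0.27.

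UHRF1, the partner that brings DNMT1 to half-marked sites, passed narrowly in 2 lines. In NCI-H526 it read 11.78, 11.86 and 11.88 (n = 6) on DMSO and 11.96, 11.98 and 12.09 (n = 7) under 552A, with no overlap and a rise of 0.17 (SE 0.06, adjusted p = 0.0382). That call ended without any 1 of 10 of the line's 13 arrays, which are all but 552A day 2 replicates 1 and 2 and DMSO day 4 replicate 1 (adjusted p of 0.0522 to 0.115, with the change between 0.15 and 0.18). In COLO668 the rise was also 0.17 (adjusted p = 0.0478), but the day 7 arrays under 552A read 11.04 and 11.50, on both sides of the DMSO arrays (11.11 and 11.10). Without all arrays in doubt the day-averaged change was 0.09. The higher 552A array of day 7 is replicate 2, an array in doubt. Without it the change was 0.09 (adjusted p = 0.347), and the call also ended without any 1 of the other arrays except 552A day 7 replicate 1 (0.0580 to 0.108). In SHP-77 UHRF1 was called at day 7 alone (-0.30, adjusted p = 0.0322), where DMSO read 11.86 and 11.57 and 552A 11.49, 11.42, 11.41 and 11.36. Without all arrays in doubt, with 1 DMSO array left, that difference was -0.19. Without DMSO replicate 1, an array in doubt, it was -0.15 (adjusted p = 0.654), and the call also ended without 552A replicate 2, 3 or 4 (0.0502 to 0.0692). On the day average UHRF1 in SHP-77 gave -0.15 (adjusted p = 0.0996), and -0.20 without DMSO day 7 replicate 2, which passed (0.0219).

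Among the erasers, the lead TET1 probe set fell in NCI-H510, the line where its DMSO level was highest. That change is computed from the same DMSO arrays as the level. In NCI-H510 the 228906_at arrays read 10.88, 10.95 and 11.05 (n = 6) on DMSO and 10.38, 10.72 and 10.82 (n = 6) under 552A, with no overlap and a change of -0.30 (SE 0.09, adjusted p = 0.0156). It was -0.26 without 552A day 7 replicate 2, which ended the call (adjusted p = 0.0763). The second TET1 probe set gave 0.08 there and was called in COLO668 instead (0.39, SE 0.11, adjusted p = 0.00672), where the lead probe set gave 0.02. That call ended without 552A day 7 replicate 1 (0.30, adjusted p = 0.0559) and in a fit of the line's own arrays (0.0760), and was kept without the arrays in doubt (0.40, 0.000187). The 2 probe sets correlated at r = 0.18 over the 21 line and day ratios, so TET1 is given per probe set.

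TET2 and TET3 rose in COLO668. TET2 (227624_at) read 9.56, 9.63 and 9.90 (n = 6) on DMSO and 9.71, 9.92 and 10.43 (n = 6) under 552A, and rose by 0.33 (SE 0.07, adjusted p = 0.000818). The arms overlapped over the line, although 552A lay above DMSO within each day, by most at day 7 (DMSO 9.56 and 9.90, 552A 10.43 and 10.25, a difference of 0.61). TET3 (235542_at) read 10.36, 10.49 and 10.65 on DMSO and 10.67, 10.75 and 10.98 under 552A (n = 6 each), with no overlap and a rise of 0.30 (SE 0.06, adjusted p = 0.000375). At day 7 its difference was 0.54, and that of 214754_at 0.55. Without the arrays in doubt the day-averaged rises were 0.30 for TET2 and 0.32 for TET3 235542_at. That leaves 1 array per arm at day 7, where the 3 differences were 0.53, 0.62 and 0.61. The third TET3 probe set, 1554641_a_at, went the other way on that day (-0.29, adjusted p = 0.0254), was -0.19 without those arrays (0.270), ended without DMSO replicate 1 or either 552A replicate (0.0808 to 0.238), and had ratios that ran against the other 2 over the 21 combinations (r of -0.49 and -0.53).

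In NCI-H510 TET3 was called up by 0.19 (SE 0.06, adjusted p = 0.0414). Its arrays kept DMSO below 552A on every day, at 11.28 and 11.26 against 11.50 and 11.46, then 11.21 and 11.18 against 11.39 and 11.35, then 11.10 and 11.07 against 11.27 and 11.25. The call ended without any 1 of the 12 arrays (adjusted p of 0.0629 to 0.0960), although the change then stayed between 0.18 and 0.19. TDG, which removes the bases that TET enzymes oxidise, was called in no line by its lead probe set, with changes from -0.19 in H1417 to 0.10 in NCI-H446. That probe set passed in SHP-77 under quantile normalization (-0.15, adjusted p = 0.00991), with the replicate block (-0.20, 0.0262) and without 552A day 7 replicate 4 (-0.19, 0.0315). It also passed in NCI-H510 without the arrays in doubt (-0.12, 0.0259) and in NCI-H446 without DMSO day 4 replicate 1 (0.16, 0.0253). It was called at SHP-77 day 7 (-0.29, adjusted p = 0.0344, and -0.15 with 0.467 without the arrays in doubt), a call that ended without DMSO replicate 1 or 2 or 552A replicate 1 or 2 (0.0617 to 0.334).

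COLO668 at day 7 held 6 called member probe sets, 4 up and 2 down (22.7% of all probe sets called), and NCI-H446 at day 4 held 4, all up (12.6%). The NCI-H446 calls were TET3 235542_at (0.33), TET3 214754_at (0.40), TDG 203743_s_at (0.37) and MBD2 202484_s_at (0.43). On each of these, DMSO replicate 2, the array with the narrow interquartile range, was the lowest: for TET3 235542_at the DMSO arrays read 10.77, 10.07 and 10.64 and the 552A arrays 10.83 and 10.80. Without that array the differences were 0.12, 0.10, 0.21 and 0.10, and none was called (adjusted p of 0.257 to 0.735). All 4 calls also ended without 552A replicate 1 or without 552A replicate 2 (0.0689 to 0.364).

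MBD2, the methyl-DNA reader, gave different answers by probe set. The lead probe set was called in 0 of 9 lines by limma, with changes between -0.22 in H2171 and 0.25 in NCI-H146. In NCI-H146 the arms did not overlap (DMSO 11.31, 11.39 and 11.47, 552A 11.49, 11.62 and 11.86, n = 6 each), the adjusted p was 0.0577, and it passed under 6 other settings (adjusted p of 4.97e-05 to 0.0457). On 214397_at the same line was called in the other direction. There MBD2 read 8.01, 8.40 and 8.83 on DMSO and 7.76, 8.08 and 8.40 under 552A (n = 6 each), arms that overlap, with a change of -0.35 (SE 0.10, adjusted p = 0.0348). That call ended without DMSO day 2 replicate 1, DMSO day 4 replicate 1, DMSO day 7 replicate 1, 552A day 2 replicate 2, 552A day 4 replicate 2 or 552A day 7 replicate 2 (-0.31 to -0.25, adjusted p of 0.143 to 0.291).

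The largest change of any member was MBD2 214397_at in H1417. It read 7.24 and 6.95 on DMSO and 8.35 and 8.36 under 552A at day 4, a rise of 1.26 (SE 0.18, 2.39-fold, adjusted p = 5.64e-07). The call held without each of the 4 arrays (1.11 to 1.40). 214396_s_at rose there too, from 6.75 and 6.14 to 7.06 and 7.53 (0.85, adjusted p = 0.00257), and that call ended without DMSO replicate 2 (0.54, 0.245) or 552A replicate 2 (0.62, 0.162). The 214396_s_at probe set is dim, with a mean of 6.43 over all arrays, and its DMSO reading of 6.14 lies just above the dim limit of 6.09. On the lead probe set H1417 read 11.83 and 11.85 on DMSO and 11.85 and 11.87 under 552A, a difference of 0.02 (95% interval -0.26 to 0.30). In H69, 214397_at rose from 9.08 and 9.15 to 9.74 and 9.72 (0.62, adjusted p = 0.0405), and leaving out any of the 4 arrays ended the call (0.58 to 0.65, adjusted p of 0.179 to 0.258).

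In COLO668, 214397_at read 6.95, 7.30 and 7.43 on DMSO and 7.45, 7.56 and 7.98 under 552A (n = 6 each), with no overlap. It rose by 0.36 (SE 0.10, adjusted p = 0.00951), most at day 7 (0.75, called, and 0.56 with 0.0760 without 552A replicate 2). The day-averaged call ended without 552A day 7 replicate 2 (0.30, adjusted p = 0.0602) and without all arrays in doubt (0.27, 0.0564). At day 7 the 214397_at difference in COLO668 was 0.48 without all arrays in doubt, with 1 array left per arm. In SHP-77, NCI-H526, NCI-H446 and H2171 this probe set was under the dim limit in both arms, so no change could be read there.

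**Figure D4:**
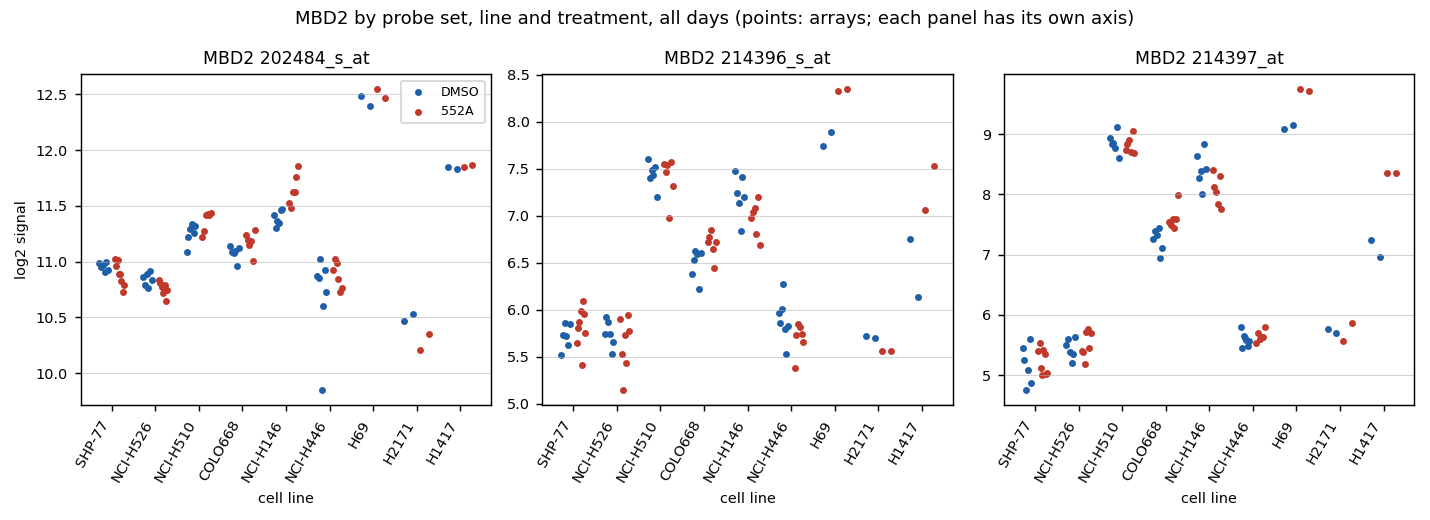
MBD2 log2 signal (y axis, own scale per panel) by line (x axis) for its 3 tested probe sets, blue for DMSO and red for 552A arrays of all days. In H1417 the red points lie about level with blue on 202484_s_at (11.86 against 11.84) and well above blue on 214397_at (8.35 against 7.10).

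A change common to the lines was asked at day 4, the day that all 9 share, with 1 ratio per line. It was called for 0 of 16 member probe sets by limma (4 had an unadjusted p below 0.05), and for 0.00338% of all probe sets. The smallest p-values belonged to TET3 235542_at (0.12, SE 0.04, higher in 8 of 9 lines, adjusted p = 0.285) and DNMT3A 222640_at (0.12, SE 0.04, higher in 8 of 9 lines, adjusted p = 0.293). DNMT3B had a mean of -0.18 (SE 0.10, lower in 6 of 9 lines, adjusted p = 0.532).

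Genes that work with the members were read from a list of 70 partners and readers (methyl-binding proteins, CXXC proteins, base excision repair, the metabolism of the methyl donor and of the TET cofactor, and histone enzymes). Of the 61 tested, by their lead probe sets, 17 of 549 gene and line pairs passed upward (3.1%, against 5.58% of all pairs of lead probe sets) and 23 downward (4.19% against 3.99%). COLO668 held 11 of the 17 upward calls (18% of the 61 genes, against 11.7% of all genes), with a list median of 0.04 against -0.02 for all genes. SHP-77 and NCI-H526 each held 7 of the 23 downward calls (11.5% of the 61 genes), against 3.58% of all genes in SHP-77 and 9.78% in NCI-H526. The list median was -0.06 in SHP-77, against -0.01 for all genes. The counts depended on the setting: 27 passed upward and 35 downward under quantile normalization, and 40 and 36 without the 6 arrays in doubt, where 7.77% of all pairs passed upward and 6.49% downward. The share of all pairs was not taken under quantile normalization. With no filter on dim probe sets 11 partner pairs passed upward, as without COLO668 552A day 4 replicate 1, and 10 did without COLO668 DMSO day 2 replicate 1. The largest called change was in GADD45A, a stress-induced gene linked to repair-coupled demethylation. In H1417 it read 10.07 and 10.12 on DMSO and 8.73 and 8.95 under 552A, and fell by 1.25 (SE 0.25, adjusted p = 0.000319). In COLO668 it rose by 0.52 (adjusted p = 0.00753), and by 0.48 without the arrays in doubt (0.0237).

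The partners with the next largest called changes moved in 1 to 3 lines each. GADD45G, a relative of GADD45A, fell by 0.67 in H1417 (adjusted p = 0.0442). KDM2B, which binds unmethylated CG islands, read 10.94 to 11.01 on DMSO (n = 6) and 11.36 to 11.57 under 552A (n = 6) in COLO668, with no overlap, and rose by 0.47 (adjusted p = 2.33e-12), or by 0.46 without the arrays in doubt (1.76e-13). It fell by 0.17 in NCI-H510 (adjusted p = 0.00419). CXXC5, another protein that binds unmethylated CG sites, fell in NCI-H446 (-0.41, adjusted p = 8.25e-05), SHP-77 (-0.31, 0.00315) and NCI-H526 (-0.22, 0.0271), and gave -0.47 in NCI-H446 (5.44e-09) and -0.35 in SHP-77 (3.33e-05) without the arrays in doubt. TRDMT1, a relative of the DNMT enzymes that methylates transfer RNA, rose by 0.38 in COLO668 (adjusted p = 0.0142), and its 2 arms there ran from 6.61 to 7.43 and from 7.25 to 7.58. Without the arrays in doubt that rise was 0.37 (adjusted p = 0.0249).

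Because DNMT1 and UHRF1 are known as genes of dividing cells, 30 S phase genes were followed beside the writers. Of the 29 tested, 4 of 261 gene and line pairs passed upward (1.53%, against 5.58% of all pairs of lead probe sets) and 12 downward (4.60% against 3.99%). COLO668 had 6 of the downward calls (20.7% of the 29 genes, against 7.94% of all genes), SHP-77 4 (13.8% against 3.58%) and NCI-H510 2 (6.90% against 6.12%, near its background). NCI-H526 had 2 of the upward calls (6.90% against 10.2%). These counts depended on the setting. Under quantile normalization 16 passed upward and 21 downward, and the share of all pairs was not taken there. Without the 6 arrays in doubt 17 passed upward and 26 downward, where 7.77% of all pairs passed upward and 6.49% downward. NCI-H526 then held 11 of the upward calls among its 29 genes, against 13.95% of all genes. COLO668 then held 9 of the downward calls among its 29 genes, against 11.998% of all genes. With each line fitted alone 7 passed upward. Without NCI-H446 DMSO day 4 replicate 2, an array in doubt, 11 did, and 8 without replicate 1 or replicate 3 of that group. Changes above 0 were measured for 23 of 29 genes in NCI-H526 and 24 in NCI-H446, against 4 in H1417 and 5 in COLO668. GINS2, a part of the replication helicase, fell in COLO668 (-0.37), NCI-H510 (-0.27) and SHP-77 (-0.20) and rose in H1417 (0.37). E2F2, a factor of S phase entry, rose by 0.33 in NCI-H526, RRM2, which makes deoxynucleotides, fell by 0.30 in COLO668, CDC45, a helicase partner, fell by 0.21 there, and the polymerase gene POLA1 fell by 0.21 in SHP-77. Without the arrays in doubt the changes in COLO668 were -0.36 for GINS2 (adjusted p = 5.05e-11), -0.30 for RRM2 (2.67e-05) and -0.26 for CDC45 (3.85e-05), and those in SHP-77 were -0.17 for GINS2 (0.000402) and -0.18 for POLA1 (0.00315).

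DNMT3B followed this list most closely of the 9 members. The median change of the 29 genes was above 0 in 7 of the 21 line and day combinations and below 0 in 14. DNMT3B had the same sign in 21 of 21, with r = 0.72 over the 21 points (0.61 to 0.77 when each line was left out). DNMT1 had the same sign in 18 and r = 0.39, and UHRF1 in 14 and r = 0.30. DNMT3A gave r = 0.43, TDG 0.38, and the other members between -0.26 and 0.02. Without the arrays in doubt DNMT3B had the sign of the list median in 19 of 21, with r = 0.73, and UHRF1 gave r = 0.33, whereas r dropped to 0.10 for DNMT1, 0.06 for DNMT3A and 0.16 for TDG. The points share arrays, and days of a line are not independent, so these are descriptions with no test. On the day average the list medians were -0.06 in SHP-77, 0.08 in NCI-H526, -0.05 in NCI-H510, -0.09 in COLO668 and -0.04 in NCI-H146. The part of cell cycle shifts in these results was not tested.

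**Figure D5:**
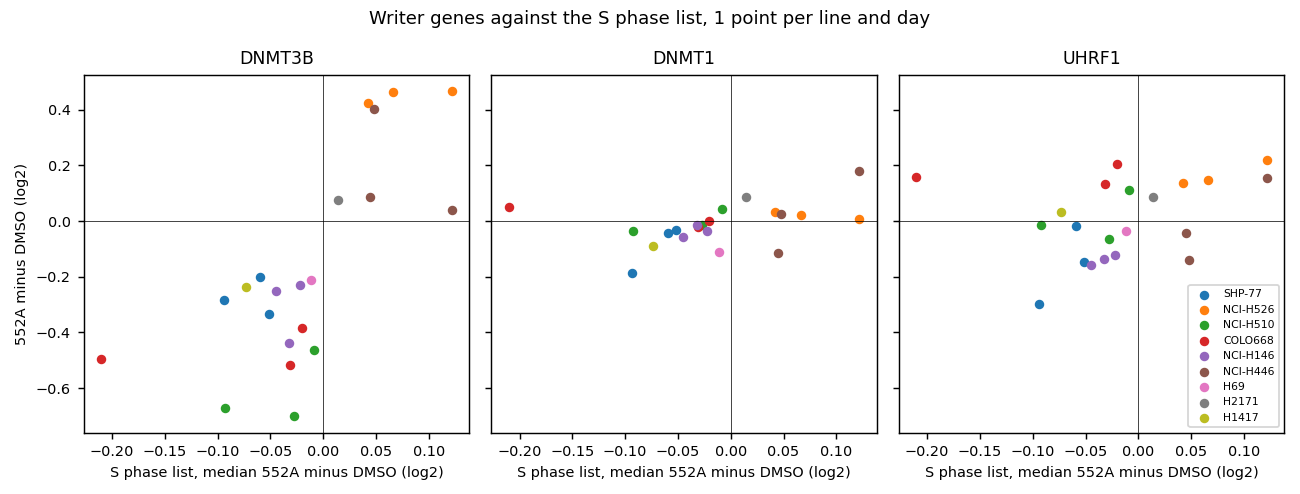
Difference 552A minus DMSO on the log2 scale for DNMT3B, DNMT1 and UHRF1 (y axis) against the median difference of 29 S phase genes (x axis), with 1 point per line and day (21 points) coloured by line. All 21 DNMT3B points lie to the lower left or upper right of the origin, and DNMT1 stays close to 0.

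The genes whose response profile over the 21 combinations was most like that of DNMT3B were GPD2 (r = 0.90), JAKMIP1 (0.90) and PDZRN3 (0.87). For UHRF1 they were RBBP4 (0.89), EWSR1 and RBM12B (0.87 and 0.86), for DNMT1 TAF1, CREBZF and SREK1 (0.80 to 0.81), and for DNMT3A CIRBP, MAGED1 and POU2AF3 (0.78 to 0.80). Of the erasers, TET1 was nearest to IPO8 (0.85), TET2 to SIX3 (0.88), TET3 to BTBD7 (0.86) and TDG to LYRM7 (0.91), and MBD2 was nearest to TMEM138 (0.87). Over the 9 DMSO means of day 4, the nearest genes were COG2 for DNMT3B (0.93), ZNF185 for TET1 (0.95) and KCNH3 for MBD2 (0.97). Each is the best of 15352 genes over few points, so a high r is given as a description only. Among the members themselves, the response profiles most alike were those of TET2 and TET3 (r = 0.67), MBD2 and TDG (0.64), and DNMT1 and UHRF1 (0.62), and the least alike were those of DNMT3B and MBD2 (-0.44). DNMT3A and DNMT3B correlated at 0.47.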

How the data were processed

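The deposited series values hold 1 log2 level per probe set and array, made by the authors. The program they used and its background correction and scaling steps were not given in the sources used here. Array medians lay between 7.36 and 7.46, so no rescaling was done, and log2 values were used as deposited. Of 54675 probe sets, 41091 carried 1 gene symbol in the platform annotation, and 29598 of them passed the filter (at least 1 group mean above 7.41) and were tested. Arrays were grouped by line, treatment and day from their titles.

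Tests used limma 3.58.1 in R 4.3.3 (with version 1.17.8 of data.table): lmFit with 42 group means, eBayes, two-sided, Benjamini-Hochberg over all 29598, called at an adjusted p below 0.05. The fit had 46 residual degrees of freedom, with a prior of 5.60. A line's response is the 552A minus DMSO difference averaged over days. The shared test used 1 ratio per line, and equality was tested with a moderated F test. The fit was also tested on simulated data. A gene's lead probe set has the highest mean over all arrays, with those ending in _x_at set aside where another exists. The dim limit is the median over arrays of the lower quartile, 6.09. Named beyond the members were the 5 genes of each list with the largest called change, and the 3 genes nearest to each member by Pearson correlation (all or the first are given). The members, lists and tests were chosen with earlier results of these data known. The number of arrays limits the precision. Alternatives were quantile normalization, other filters, 1 probe set per gene, an intensity trend, leaving out 6 arrays in doubt, each array or each line, a replicate block, and each line fitted alone. Correlations of same-numbered arrays were above 0.1 in 21 of 42 pairs and below -0.1 in 7, with a median of 0.11 and a range from -0.61 to 0.63. Where both groups hold 2 arrays, the 2 pairs give the same value, so these correlations cannot settle whether the numbers pair the arrays. The main fit did not pair them, and the replicate block did. Promoter windows are from RefSeq (all 9 genes matched). Figures were drawn with matplotlib 3.10.9 and numpy 2.4.6, and tables with pandas 2.3.3, in Python 3.11.15.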

Additional observations from a re-analysis of the deposited data

Results flagged for a closer look

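The response to 552A differed between the 6 time course lines for 8 member probe sets, by a moderated F test of the difference itself (limma). The adjusted p was 3.43e-15 for DNMT3B, 0.00206 for UHRF1, 0.00411 for TET2, 0.00493 for MBD2 214397_at, 0.0122 for TET1 214862_x_at, 0.0128 for TET3 235542_at, 0.0232 for TET1 228906_at and 0.0326 for DNMT3A 222640_at. Among these lines DNMT3B was called up in NCI-H526 and down in 4 others, and MBD2 214397_at was called up in COLO668 and down in NCI-H146. MBD2 214397_at was under the dim limit in both arms of SHP-77, NCI-H526 and NCI-H446, so its test rests in part on values that cannot be read.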

How the results depend on the processing

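No result of the report changed direction among its called values. Of the 20 calls within lines, 18 remained under quantile normalization, 16 with no filter, 20 with an intensity trend, 18 without the 6 arrays in doubt, 19 with the replicate block (16 up and 7 down in all) and 15 when each line was fitted alone, with 18 of 18 and 12 of 12 under a filter at the upper quartile and 1 probe set per gene. The block gives no value for contrasts between days or lines. Values that moved were as follows, with the cause not tested. Quantile normalization gave 2 calls between days on DMSO, 27 up and 35 down for partners, and 16 up and 21 down for S phase genes. Leaving out the 6 arrays gave 6 calls between days, 40 up and 36 down for partners, and 17 up and 26 down for S phase genes. Without those arrays 7.77% of all pairs of lead probe sets passed upward and 6.49% downward. For the calls between days, and under quantile normalization, the share of all pairs was not taken. With no filter, 11 partners passed upward. With 1 probe set per gene, fewer probe sets were tested, and 8 calls within lines and 11 per line and day were up, 0 lay between days, and 9 levels differed. With each line alone, 6 calls per line and day were down and 7 S phase calls up. Leaving out each array in turn gave 11 to 20 up and 5 to 9 down within lines, 14 to 21 up and 7 to 12 down per line and day, 0 to 3 between days, 7 to 11 unequal responses, 16 to 16 unequal levels, 0 to 0 shared calls, 10 to 23 up and 19 to 30 down for partners, and 3 to 11 up and 9 to 17 down for S phase genes. Shared tests gave 0 calls without each line.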
